A study of Homo sapiens with 6 samples.

Results

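The 41 genes described here encode the proteins that license replication origins and run the DNA replication fork. They are a list by function, matched by symbol to the array annotation, and 41 of 41 were among the 14534 genes that could be tested. Their RNA was read on Illumina bead arrays in HCT116 cells, a line from a human colon carcinoma, in a p53-null form, so that both groups lack the tumour suppressor p53. For 48 h the cells received either 10 µM TIC10, the small molecule ONC201, or its solvent DMSO at 0.05%, and each group had 3 arrays. The labels call the arrays replicates and do not say that they came from separate cultures, so the p-values reflect only the spread among the arrays, possibly technical, and their number limits the precision.

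Before S phase, the origin recognition complex (ORC), CDC6 and CDT1 load the MCM helicase onto DNA, a step called licensing, which geminin (GMNN) blocks once S phase has begun. The kinase CDC7 with DBF4, and the factors CDC45, TOPBP1 and MCM10, then turn the loaded helicase into a moving fork. Behind it, polymerase alpha and primase start each strand, the RFC complex loads the PCNA ring, polymerases delta and epsilon extend, and FEN1, LIG1 and their partners finish the lagging strand. Many of these genes are textbook targets of the E2F transcription factors and are transcribed as cells enter S phase, and their RNA is low in cells that do not cycle.

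The promoter sequences of these genes are shown first, around some of the letters that E2F factors recognise. The list holds many textbook E2F targets, so how often the letters occur describes the list and not the changes. A link between the letters and the changes was not tested. RefSeq windows of 300 bases (250 before and 50 after a start site, build GRCh38.p14) were held for 37 of the 41 genes, and in them the letters TTTGGCGC, TTTCCCGC, TTTGCCGC and TTTCGCGC were searched on both strands. A match stood in at least 1 window of 16 of the 37 genes, 43.2%, against 6.15% of the 11346 tested genes with a window and 3.31% of all 35116 windows in the table. In 14 of the 16 the match lay within 100 bases of the start site, and no match overlapped a CCAAT box or one of the CHR letters TTTGAA and TTCGAA. The first match of each gene, with 16 bases on either side, is printed 5′ to 3′ on the gene's strand with the E2F letters in capitals. TIPIN holds 2 overlapping matches there, and CDC7 has a second match that is not printed.
ORC3 (chr6:87590107-87590146, plus strand): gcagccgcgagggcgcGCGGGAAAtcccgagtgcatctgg
CDC6 (chr17:40287870-40287909, plus strand): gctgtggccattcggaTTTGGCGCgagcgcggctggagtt
CDT1 (chr16:88803738-88803777, plus strand): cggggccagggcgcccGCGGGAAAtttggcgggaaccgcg
GMNN (chr6:24775317-24775356, plus strand): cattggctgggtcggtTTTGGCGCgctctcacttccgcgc
DTL (chr1:212035724-212035763, plus strand): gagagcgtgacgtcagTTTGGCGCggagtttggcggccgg
CDC7 (chr1:91501028-91501067, plus strand): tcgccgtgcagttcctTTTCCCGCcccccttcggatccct
TOPBP1 (chr3:133661925-133661964, minus strand): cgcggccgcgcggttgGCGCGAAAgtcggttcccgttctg
POLA1 (chrX:24693765-24693804, plus strand): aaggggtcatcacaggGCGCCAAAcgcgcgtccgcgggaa
POLA2 (chr11:65261893-65261932, plus strand): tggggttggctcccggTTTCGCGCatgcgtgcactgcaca
POLE (chr12:132687337-132687376, minus strand): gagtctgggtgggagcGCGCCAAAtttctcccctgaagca
POLE2 (chr14:49688196-49688235, minus strand): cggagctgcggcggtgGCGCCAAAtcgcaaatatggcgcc
PCNA (chr20:5126658-5126697, minus strand): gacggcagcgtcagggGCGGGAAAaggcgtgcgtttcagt
RFC3 (chr13:33818078-33818117, plus strand): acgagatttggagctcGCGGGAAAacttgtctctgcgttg
LIG1 (chr19:48170435-48170474, minus strand): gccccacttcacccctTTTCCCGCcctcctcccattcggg
CLSPN (chr1:35769960-35769999, minus strand): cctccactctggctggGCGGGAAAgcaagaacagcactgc
TIPIN (chr15:66356728-66356767, minus strand): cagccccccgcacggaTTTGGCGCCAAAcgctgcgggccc

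The letters TTTGGCGC were found in 7 of these genes, TTTCCCGC in 7, TTTCGCGC in 2 and TTTGCCGC in 0, each in the gene's first match. CCAAT occurred in 21 of the 37 genes, 56.8% against 43.2% of tested genes, and the CHR letters in 2, POLE3 and DBF4, 5.41% against 16.5%. The whole windows of 3 genes with large falls are printed in the same way, 2 with a match and FEN1, whose window held none of the searched E2F letters. GMNN and PCNA each had another window without these letters, and the window printed was chosen because it held a match.
GMNN (chr6:24775163-24775462, plus strand): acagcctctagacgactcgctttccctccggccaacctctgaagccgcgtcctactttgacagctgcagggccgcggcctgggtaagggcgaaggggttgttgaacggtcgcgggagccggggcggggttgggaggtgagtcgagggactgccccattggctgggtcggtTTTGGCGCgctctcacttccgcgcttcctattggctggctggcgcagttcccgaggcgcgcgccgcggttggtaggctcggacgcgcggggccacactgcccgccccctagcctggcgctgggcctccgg
PCNA (chr20:5126573-5126872, minus strand): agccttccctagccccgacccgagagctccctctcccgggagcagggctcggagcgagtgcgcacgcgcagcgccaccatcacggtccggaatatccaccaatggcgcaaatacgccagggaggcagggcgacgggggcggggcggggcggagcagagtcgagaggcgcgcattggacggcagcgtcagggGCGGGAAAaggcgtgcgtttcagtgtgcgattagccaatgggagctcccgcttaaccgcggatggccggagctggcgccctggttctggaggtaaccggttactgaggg
FEN1 (chr11:61792661-61792960, plus strand): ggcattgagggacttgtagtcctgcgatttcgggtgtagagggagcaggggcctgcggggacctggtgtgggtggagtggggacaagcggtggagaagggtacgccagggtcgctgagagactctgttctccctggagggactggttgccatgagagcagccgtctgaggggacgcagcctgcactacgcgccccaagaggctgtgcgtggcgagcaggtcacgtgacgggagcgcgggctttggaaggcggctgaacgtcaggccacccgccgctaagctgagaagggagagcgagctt

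TIC10-treated cells held less RNA of most of these genes. Of the 41, 32 were lower and 0 higher (limma, Benjamini-Hochberg adjusted p under 0.05 over all genes), where 13.4% of all genes tested were lower and 10.4% higher. The median log2 change of the 41 was -0.98, that of all genes -0.01. A call with at least a 2-fold fall was made for 19 of the 41, against 2.77% of all genes. All 3 TIC10 values lay below all 3 DMSO values in 35 of the 41, against 23.1% of all genes. The estimate was below 0 in 39 of the 41, all but ORC2 and ORC3, against 52.2% of all genes. Above percentile 40 on every array were 39 of the 41, of which 31 were lower, and the others, CLSPN and DBF4, passed the brightness filter only with the help of their DMSO arrays. In a population of cells, fewer cells in S phase and less RNA per cell cannot be told apart.

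The arrays differed in brightness, and at the median probe the difference ran with treatment. The mean intensity overlapped between the groups, at 245 to 277 in TIC10 and 270 to 404 in DMSO. The median probe read 42.6 to 43.6 in TIC10 and 46.0 to 49.6 in DMSO before normalization, and DMSO array 3 was the brightest. After normalization DMSO array 3 still lay above the mean of the other DMSO arrays. The median excess was 0.26 on the log2 scale over the 41 genes, against 0.02 over all genes. DMSO array 3 was the highest DMSO array in 28 of the 41, 68.3%, against 43.9% of all genes. Without it 34 of the 41 were lower (all genes 19.2%) and the median change was -0.82. When arrays were scaled to a common median in place of quantile normalization, 28 were lower and 0 higher. The median of the 41 was then -1.40, beside -0.15 for all genes. Beyond these refits the part of array brightness in the results was not tested. Of 5 epithelial marker genes 4 stood above percentile 90 on all arrays (EPCAM, KRT8, KRT19 and CDH1). KRT18 stayed below it, at percentile 42.7 to 81.7, and differed by 0.76 ± 0.35 (adjusted p = 0.175). Of the 5, 1 was called, KRT19, which rose by 0.40 ± 0.10 (adjusted p = 0.0270). The brightest probes of 12 fibroblast, leukocyte and endothelial markers stayed below percentile 90 on all arrays, and 0 of the 7 that could be tested were called. The absence of p53 was not checked here.

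**Figure D1:**
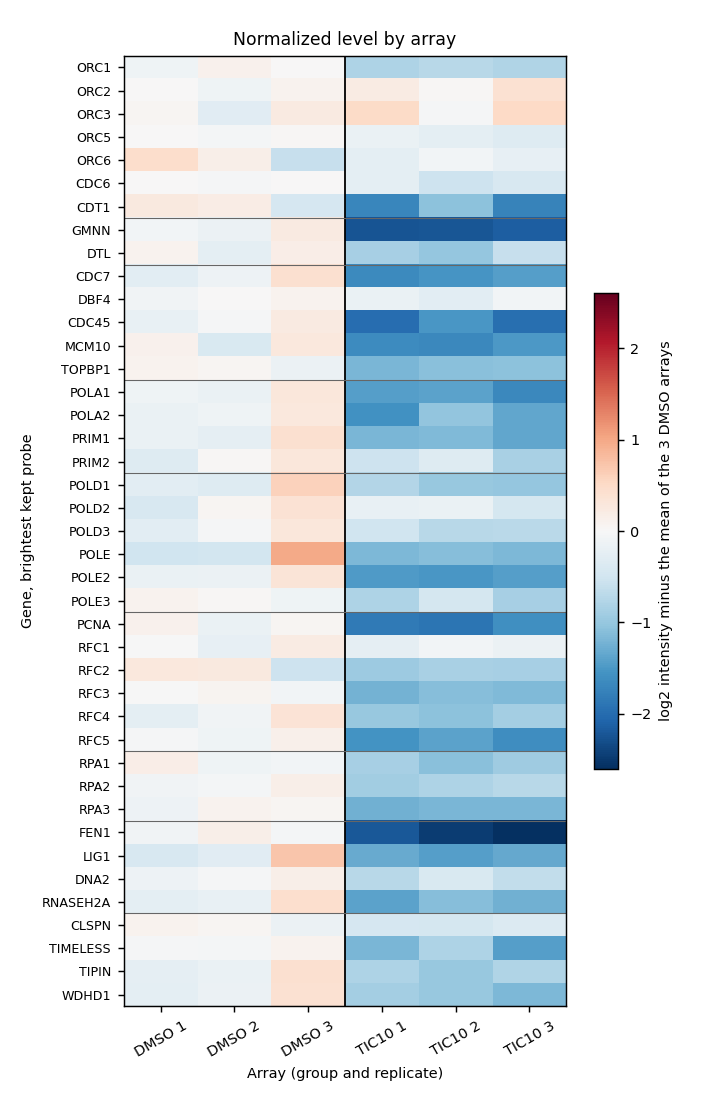
Normalized log2 intensity of the brightest kept probe of each of the 41 genes (rows, by role) on the 6 arrays (columns), as the difference from the mean of the 3 DMSO arrays (colour, blue lower). The TIC10 columns are blue in nearly every row. ORC2 and ORC3 are the rows whose TIC10 mean is above 0, with ORC3 slightly below 0 on TIC10 2. DMSO 3 is redder than DMSO 1 and 2 in many rows.

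The series matrix, the authors' processed values of the same probes, gave a negative change for all 32 genes called lower in the bead table. There 39 of the 41 had a negative change (51.4% of all genes) and 13 were called lower (3.02% of all genes), with a median of -0.35 for the 41. All TIC10 columns lay below all DMSO columns in 27 of the 41 (12.1% of all genes). The 13 called were ORC1, GMNN, MCM10, TOPBP1, POLA2, POLE2, POLE3, PCNA, RFC2, RFC3, RFC5, RPA1 and FEN1, all of them also lower in the bead table. How the matrix was scaled, to which log base and around which reference it was centred is unknown here, so its changes are not set against the bead changes in size. Array by array the tables did not match. Deviations from the group mean correlated at -0.651 to 0.123 between a bead array and the matrix column of the same group and number (15729 probes), so they are compared only as groups.

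**Figure D2:**
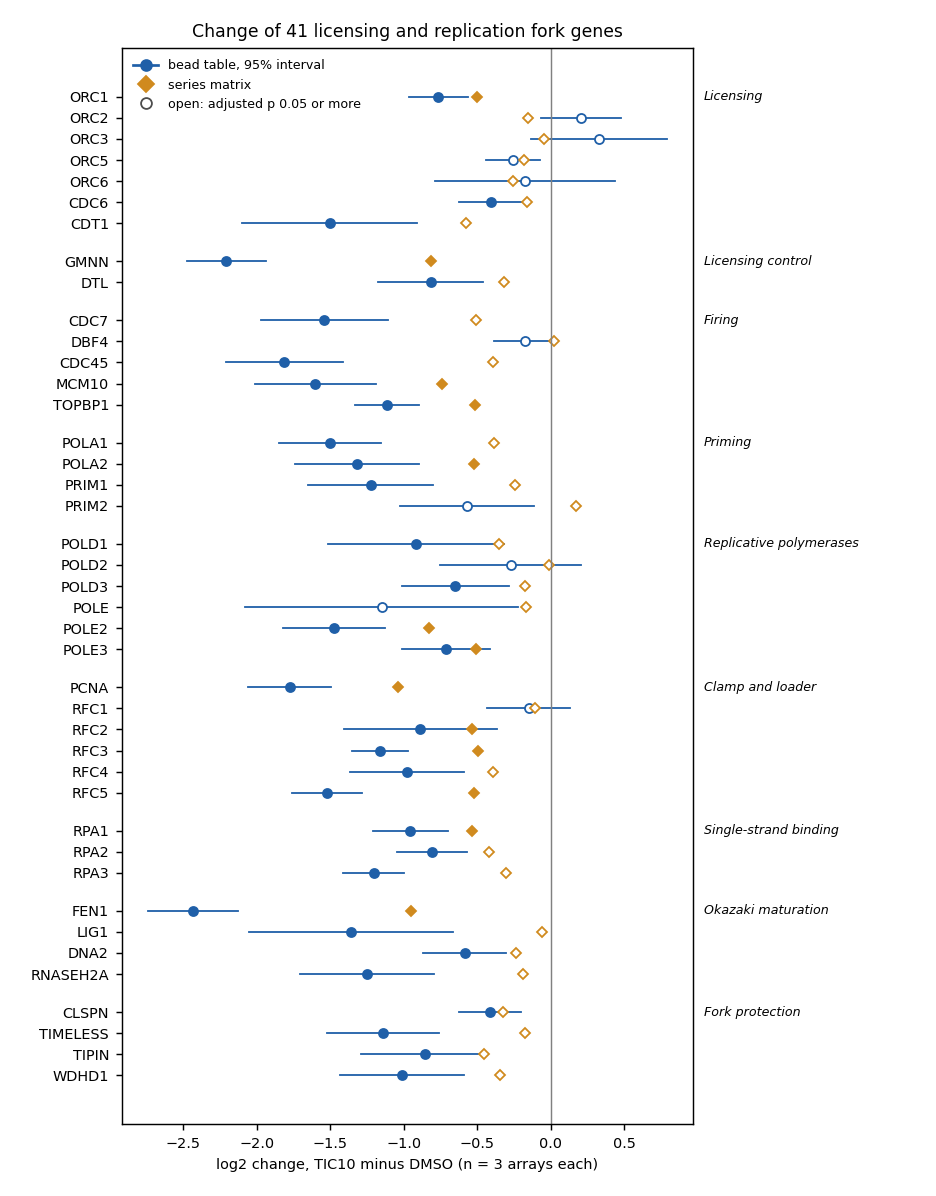
Log2 change (TIC10 minus DMSO, 3 arrays each) of the 41 genes by role. Circles and lines are the bead table's estimate and 95% interval, diamonds the series matrix, and open symbols did not pass an adjusted p of 0.05. 32 circles are filled, all on the negative side, and 13 diamonds, with 7 of the 9 open circles also below 0. The scale of the series matrix is unknown here, so circles and diamonds share an axis but are not to be compared in size.

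The licensing genes were the most divided group: 3 of 7 were lower, ORC1, CDC6 and CDT1, and 4 did not pass (median -0.26). CDT1, which brings the MCM helicase to ORC, read 10.24, 10.18 and 9.54 on DMSO arrays 1 to 3 and 8.28, 8.91 and 8.25 on TIC10 arrays 1 to 3 on the normalized log2 intensity scale. All TIC10 values lay below the DMSO values, and DMSO array 3 was the lowest of its group. CDT1 fell by 1.50 on the log2 scale, 2.84-fold (adjusted p = 0.00648), and differed in the series matrix by -0.58 (adjusted p = 0.145). ORC1, the ORC subunit whose level varies through the cell cycle in human cells, read 7.11, 7.34 and 7.24 on DMSO arrays 1 to 3 and 6.44, 6.51 and 6.45 on TIC10 arrays 1 to 3. Its groups did not overlap, and it changed by -0.77 ± 0.08 (SE, adjusted p = 0.00144), with -0.50 (adjusted p = 0.0205) in the series matrix. CDC6, the ATPase that closes ORC around DNA, changed by -0.41 ± 0.09 (adjusted p = 0.0207), and its single probe was dim, with intensities of 84.4, 75.6 and 102 in DMSO and 55.1, 44.2 and 49.6 in TIC10. That call was lost without DMSO array 1 or 2 or TIC10 array 2 or 3 (adjusted p up to 0.0729). CDC6 did not pass in the series matrix either (-0.16, adjusted p = 0.526).

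The other ORC subunits gave no call at their brightest probes. ORC2 read 8.68, 8.57 and 8.78 on DMSO arrays 1 to 3 and 8.88, 8.71 and 9.07 on TIC10 arrays 1 to 3, with overlapping groups and a difference of 0.21 ± 0.11 (95% interval -0.06 to 0.48, adjusted p = 0.249). ORC3 differed by 0.33 ± 0.19 (interval -0.13 to 0.79, adjusted p = 0.284), and ORC5 by -0.26 ± 0.08 (interval -0.44 to -0.07, adjusted p = 0.0554). A further kept ORC5 probe lay on the other side of 0, at 0.12 ± 0.09 (adjusted p = 0.458 over all probes). When arrays were scaled to a common median the estimates of ORC2 and ORC3 turned to -0.21 and -0.10, and neither passed. ORC6, the smallest subunit, gave different answers at its 2 probes. Its brightest probe, with intensities of 9159.9, 6924 and 6868 in DMSO and 5066, 6159 and 6095 in TIC10, differed by -0.18 ± 0.26 (adjusted p = 0.691), and after normalization DMSO array 3 lay below all TIC10 arrays. The further probe read 654, 472 and 847 in DMSO and 147, 139.9 and 159 in TIC10 and changed by -1.50 ± 0.08 (adjusted p = 0.000276 over all probes), with -0.66 in the series matrix (adjusted p = 0.0204). Without DMSO array 3 the brightest probe passed as well (-0.48, adjusted p = 0.00983), and without DMSO array 1 its estimate was 0.05. ORC4, the remaining subunit measured here, differed by -0.18 ± 0.09 (adjusted p = 0.208).

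Both genes that hold licensing in check were lower. GMNN, the inhibitor that binds CDT1, read 9.86, 9.78 and 10.16 on DMSO arrays 1 to 3 and 7.68, 7.70 and 7.79 on TIC10 arrays 1 to 3. The TIC10 arrays lay close together and far below every DMSO array. GMNN fell 4.62-fold, from 9.93 ± 0.20 to 7.72 ± 0.06 (mean ± SD, n = 3 each; adjusted p = 0.000169), and was lower in the series matrix, -0.81 (adjusted p = 0.0118). DTL, the substrate receptor of the ubiquitin ligase that destroys CDT1 on PCNA-bound DNA, read 7.87, 7.53 and 7.97 on DMSO arrays 1 to 3 and 6.94, 6.79 and 7.19 on TIC10 arrays 1 to 3. It changed by -0.82 ± 0.15 (adjusted p = 0.00956), and its series matrix difference of -0.32 (adjusted p = 0.330) did not pass.

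Of the 5 firing factors 4 were lower, each by more than 2-fold (median -1.54). CDC45, which joins MCM and GINS in the active helicase, read 9.33, 9.50 and 9.76 on DMSO arrays 1 to 3 and 7.56, 8.03 and 7.57 on TIC10 arrays 1 to 3 and fell 3.51-fold (adjusted p = 0.000760). MCM10, needed to set the helicase moving, fell 3.03-fold, from 9.13 ± 0.35 to 7.52 ± 0.10 (adjusted p = 0.00128). Its further probe changed by -1.40 ± 0.17. The kinase CDC7 changed by -1.54 ± 0.18 (adjusted p = 0.00182) and read 8.44, 8.57 and 9.13 on DMSO arrays 1 to 3 and 7.07, 7.17 and 7.28 on TIC10 arrays 1 to 3. No TIC10 value of CDC45 or CDC7 reached a DMSO value. TOPBP1, a scaffold for helicase assembly and for ATR signalling, changed by -1.12 ± 0.09 (adjusted p = 0.000581). DBF4, the activating subunit of CDC7, did not pass (-0.18 ± 0.09, interval -0.39 to 0.04, adjusted p = 0.213), but its probe was near the level of the median probe, with intensities of 50.1, 53.6 and 66.4 in DMSO and 41.6, 38.2 and 46.0 in TIC10, so a change could go undetected. In the series matrix MCM10 and TOPBP1 were lower, CDC7 at -0.51 (adjusted p = 0.0578) and CDC45 at -0.39 (adjusted p = 0.0758) did not pass, and DBF4 was at 0.02 (adjusted p = 0.964).

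Polymerase alpha and primase, which lay the RNA-DNA primer, were lower in 3 of 4 subunits (median -1.27). POLA1, the catalytic subunit, read 8.21, 8.17 and 8.62 on DMSO arrays 1 to 3 and 6.90, 6.93 and 6.65 on TIC10 arrays 1 to 3, and its TIC10 values were the lower by more than 1 log2 unit. It changed by -1.50 ± 0.15 (adjusted p = 0.000900), while its further, dimmer probe gave -0.37 ± 0.11 (adjusted p = 0.0634 over all probes). POLA2 changed by -1.32 ± 0.18 (adjusted p = 0.00287) and was lower in the series matrix as well, -0.52 (adjusted p = 0.0323). PRIM1, the catalytic primase subunit, changed by -1.23 ± 0.18 (adjusted p = 0.00391). POLA1 at -0.39 (adjusted p = 0.0917) and PRIM1 at -0.24 (adjusted p = 0.277) did not pass in the series matrix. PRIM2, the regulatory primase subunit, read 7.51, 7.88 and 8.12 on DMSO arrays 1 to 3 and 7.31, 7.50 and 6.99 on TIC10 arrays 1 to 3. Its groups did not overlap, yet the difference of -0.57 ± 0.19 did not pass (adjusted p = 0.0748; 0.0354 without DMSO array 1), and the series matrix gave 0.17 (adjusted p = 0.721).

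Among the 6 subunits of polymerases delta and epsilon 4 were lower (median -0.81). POLE2, the second subunit of polymerase epsilon, read 8.80, 8.82 and 9.31 on DMSO arrays 1 to 3 and 7.49, 7.46 and 7.55 on TIC10 arrays 1 to 3 and fell 2.78-fold (adjusted p = 0.000955), with -0.83 (adjusted p = 0.000363) in the series matrix. POLE3, a histone-fold subunit that epsilon shares with a chromatin remodelling complex, fell 1.64-fold (adjusted p = 0.00829) and was also lower in the series matrix, -0.51 (adjusted p = 0.0191). POLE, the catalytic subunit, read 8.05, 8.11 and 9.57 on DMSO arrays 1 to 3 and 7.40, 7.47 and 7.41 on TIC10 arrays 1 to 3. DMSO array 3 stood far above the other DMSO arrays, and the difference of -1.15 ± 0.39 did not pass (adjusted p = 0.0782). Without that array POLE differed by -0.65 (adjusted p = 0.000418, and 0.000418 to 0.714 over 15 alternatives).

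In polymerase delta the catalytic subunit POLD1 changed by -0.92 ± 0.25 (adjusted p = 0.0396) and POLD3 by -0.65 ± 0.15 (adjusted p = 0.0238). Both calls were lost whichever TIC10 array was left out, with adjusted p rising to at most 0.128 for POLD1 and 0.0877 for POLD3, and POLD3 also without DMSO array 2. POLD2, which ties the catalytic and accessory subunits together, read 9.04, 9.50 and 9.83 on DMSO arrays 1 to 3 and 9.26, 9.30 and 9.00 on TIC10 arrays 1 to 3. Its groups overlapped and it differed by -0.27 ± 0.20 (interval -0.75 to 0.21, adjusted p = 0.402), with -0.08 at its further probe. Of the small subunits outside the list, POLD4 rose by 0.81 ± 0.15 (adjusted p = 0.00865, in the series matrix 0.63 and adjusted p = 0.00571), and POLE4, the partner of POLE3, differed by -0.05 ± 0.12 (adjusted p = 0.815).

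The clamp and 4 of the 5 clamp loader subunits were lower (median -1.07). PCNA, the ring that holds polymerases on DNA, had intensities of 3775, 2787 and 5598 in DMSO and 718, 695 and 1040.2 in TIC10 at its brightest probe, and 11.83, 11.56 and 11.78 on DMSO arrays 1 to 3 and 9.88, 9.83 and 10.14 on TIC10 arrays 1 to 3 after normalization. It fell 3.42-fold (adjusted p = 0.000290), and the series matrix gave -1.04 (adjusted p = 0.00164). Its other probes, which were far dimmer, changed by -0.24 ± 0.08 (adjusted p = 0.105) and -0.55 ± 0.09 (adjusted p = 0.00816). RFC5 fell 2.87-fold (adjusted p = 0.000281), RFC3 2.24-fold (adjusted p = 0.000310) and RFC4 1.97-fold (adjusted p = 0.00648). RFC5 and RFC3 were also lower in the series matrix, where RFC4 at -0.39 (adjusted p = 0.0508) did not pass. A further RFC5 probe, with intensities of 43.7, 42.8 and 47.0 in DMSO and 42.1, 44.0 and 43.7 in TIC10, stood near the median probe of its arrays and differed by 0.06 ± 0.06. RFC2 read 8.66, 8.63 and 7.85 on DMSO arrays 1 to 3 and 7.44, 7.54 and 7.51 on TIC10 arrays 1 to 3, with DMSO array 3 closest to the TIC10 arrays. It changed by -0.89 ± 0.22 (adjusted p = 0.0269), and the call was lost without any one array but DMSO array 3 (adjusted p up to 0.0997). RFC1, the large subunit, read 9.23, 9.03 and 9.45 on DMSO arrays 1 to 3 and 9.01, 9.16 and 9.09 on TIC10 arrays 1 to 3, with overlapping groups and a difference of -0.15 ± 0.12 (interval -0.43 to 0.13, adjusted p = 0.436). Its further probe gave -0.20 ± 0.08, which did not pass either.

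All 3 subunits of RPA, the complex that coats single-stranded DNA, were lower (median -0.96). RPA3 fell 2.30-fold, from 11.31 ± 0.12 to 10.10 ± 0.04 (adjusted p = 0.000374), and RPA2 1.75-fold (adjusted p = 0.00220). RPA1, the large DNA-binding subunit, had 3 probes, which changed by -0.96 ± 0.11, -1.01 ± 0.19 and -1.03 ± 0.15. The RPA1 probes thus lay within their standard errors of each other. In the series matrix RPA1 was lower, -0.53 (adjusted p = 0.00934), while RPA2 at -0.42 (adjusted p = 0.0676) and RPA3 at -0.30 (adjusted p = 0.140) did not pass.

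All 4 genes of Okazaki fragment maturation were lower (median -1.30). FEN1, the nuclease that trims the flap left by the displaced primer, had intensities of 2265, 2345 and 3617 in DMSO and 367, 308 and 323 in TIC10, and 11.06, 11.30 and 11.09 on DMSO arrays 1 to 3 and 8.94, 8.68 and 8.52 on TIC10 arrays 1 to 3 after normalization. It fell 5.41-fold (adjusted p = 0.000171), the largest estimate among the 41, and a further probe gave -1.96 ± 0.11. In the series matrix FEN1 was at -0.95 (adjusted p = 0.000962). RNASEH2A, the catalytic subunit of the ribonuclease that removes RNA from DNA, fell 2.38-fold (adjusted p = 0.00480), and in the series matrix differed by -0.19 (adjusted p = 0.487). LIG1, the ligase that seals the nicks, read 7.98, 8.10 and 9.13 on DMSO arrays 1 to 3 and 7.10, 6.98 and 7.07 on TIC10 arrays 1 to 3. DMSO array 3 was the highest by about 1 log2 unit, and the change of -1.36 ± 0.29 (adjusted p = 0.0167) lost its call whichever TIC10 array was left out (adjusted p up to 0.0632), while in the series matrix LIG1 was at -0.06 (adjusted p = 0.904). DNA2, a nuclease and helicase for long flaps, changed by -0.58 ± 0.12 (adjusted p = 0.0137), and did not pass without TIC10 array 1 or 3 (adjusted p up to 0.0602). Nor did DNA2 pass in the series matrix (-0.24, adjusted p = 0.339).

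All 4 fork protection genes were lower in the bead table and 0 in the series matrix (bead median -0.94, matrix median -0.33). TIMELESS, which steadies the fork together with TIPIN, read 10.18, 10.16 and 10.30 on DMSO arrays 1 to 3 and 9.02, 9.41 and 8.78 on TIC10 arrays 1 to 3. It fell 2.20-fold (adjusted p = 0.00340), its partner TIPIN 1.81-fold (adjusted p = 0.0157) and WDHD1, which couples polymerase alpha to the helicase, 2.02-fold (adjusted p = 0.00802). WDHD1 had 2 further, dimmer probes, at -0.30 ± 0.17 and -0.31 ± 0.13, which did not pass. CLSPN, the mediator of checkpoint signals from ATR to CHEK1, was dim, with intensities of 71.0, 64.9 and 61.6 in DMSO and 38.4, 37.9 and 40.6 in TIC10, and its TIC10 values lay below the median probe of their arrays. Its change of -0.41 ± 0.09 (adjusted p = 0.0165) can be understated so close to the floor of the array. CLSPN passed the brightness filter through its DMSO arrays, with only 1 TIC10 array above percentile 40, so its call is no support for the group, and it was not tested under the stricter filter. The TIPIN call was lost whichever TIC10 array was left out (adjusted p up to 0.0621), and that of CLSPN without TIC10 array 1 or 2 or DMSO array 1 or 2 (adjusted p up to 0.0685).

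Probes of the same gene showed how far a gene's value rests on the probe. The 41 genes had 63 probes, of which 61 passed the brightness filter and 42 of these were lower (all kept probes 9.32%), 0 higher. More than 1 kept probe stood for 16 genes, and 7 of these had every kept probe lower, 6 some but not all and 3 none. The 6 divided genes were ORC6, POLA1, PCNA, RFC5, DNA2 and WDHD1. In ORC6 the brightest probe did not pass. In the rest the probes that did not pass were dim in TIC10, where the median probe read 42.6 to 43.6. They read 36.4 to 42.5 for POLA1, 35.2 to 42.7 for PCNA and 42.1 to 44.0 for RFC5. For DNA2 the range was 50.7 to 58.5, and for WDHD1 40.9 to 47.2 and 40.3 to 51.3. Neither the part of the intensity floor nor whether the divided probes lie on different transcripts was tested.

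**Figure D3:**
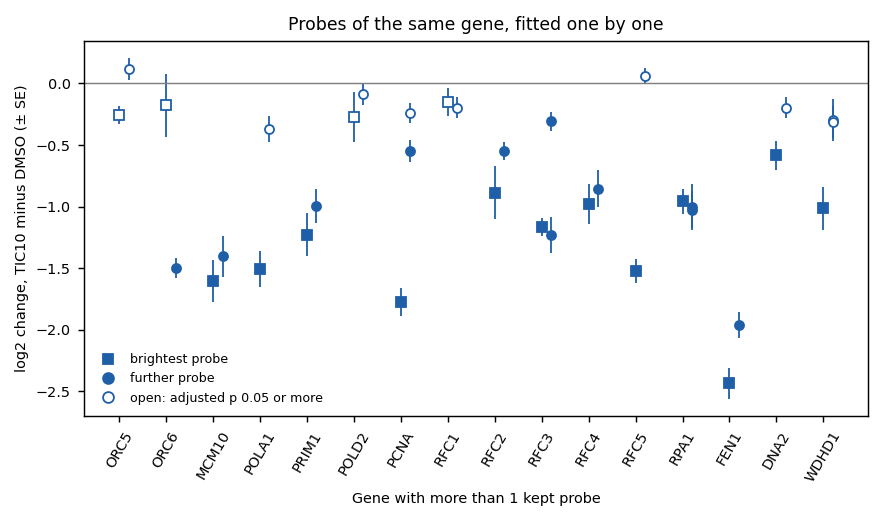
Log2 change ± SE (TIC10 minus DMSO, 3 arrays each) of every kept probe of the 16 genes with more than 1, fitted probe by probe. Squares mark the brightest probe and circles further probes, open where the adjusted p over all probes was 0.05 or more. In ORC6 the brightest probe is open and the further one filled at -1.50, and in RFC5, POLA1, DNA2 and WDHD1 the brightest alone is filled.

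Partner genes were compared as differences within each array. The level of such a difference depends on the probes and only its change between groups is read. RFC4 minus RFC1 was 1.03, 1.39 and 1.43 on DMSO arrays and 0.52, 0.29 and 0.56 on TIC10 arrays, a change of -0.83. ORC1 minus ORC2 was -1.57, -1.23 and -1.54 on DMSO arrays and -2.44, -2.20 and -2.61 on TIC10 arrays, a change of -0.97. In both pairs every TIC10 difference lay below every DMSO difference, while neither ORC2 nor RFC1 had itself passed the test. When arrays were scaled to a common median the changes were -0.84 for RFC4 minus RFC1 and -0.75 for ORC1 minus ORC2. FEN1 minus DNA2 differed between the groups by -1.85, and POLE2 minus POLE3 by -0.76 (-2.09 and -0.71 with that scaling). CDT1 minus GMNN was 0.39, 0.40 and -0.62 on DMSO arrays and 0.60, 1.22 and 0.47 on TIC10 arrays, a difference between the groups of 0.70, a value that came to 0.37 without DMSO array 3. The groups did not overlap in any of the 5 pairs, and each gave p = 0.1 in a two-sided exact permutation test (0.1 after adjustment over the 5), the smallest that 3 arrays against 3 allow, so none could reach 0.05. The probe of DNA2 was dim, with intensities of 103, 103 and 176 in DMSO and 51.4, 66.4 and 56.6 in TIC10. ORC1 was dim in TIC10 as well, at 57.8, 60.9 and 61.4. The part of the intensity floor in the pairs of DNA2 and ORC1 was not tested.

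**Figure D4:**
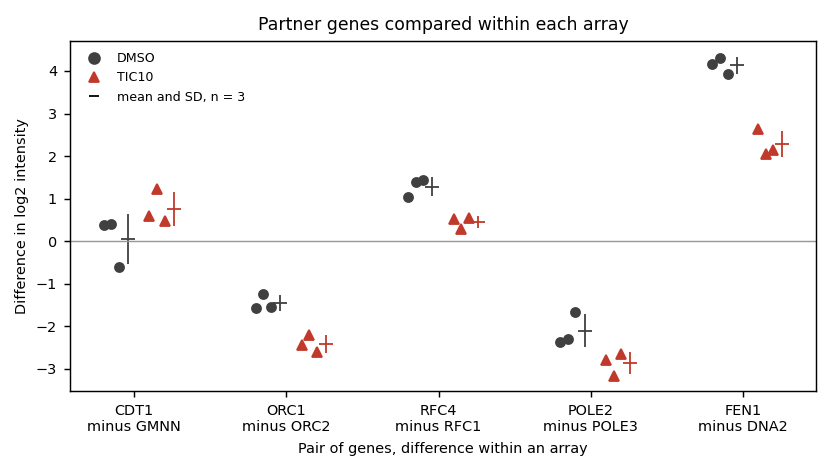
Difference in normalized log2 intensity between 2 genes on each array, for 5 pairs. Points are the 3 DMSO arrays (circles) and 3 TIC10 arrays (triangles), with mean and SD beside them. The groups are apart in every pair, upward in TIC10 for CDT1 minus GMNN and downward for the other 4.

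The promoter letters were set beside the changes as a description. Of the 16 genes with an E2F match 14 were lower (median -1.24), and of the 21 with a window and no match 14 were (median -0.92). ORC3 and POLE (estimate -1.15) carried a match and were not called in the main fit. FEN1, CDC45 and MCM10, with falls of over 3-fold, carried none of the searched letters. Only exact copies were searched, and other forms of an E2F site could be missed. A window of CDC45 and that of MCM10 hold TTTGGCGG, which was not among the searched letters. Windows of other members hold it too, CDT1, DTL and POLA2 among them. How often TTTGGCGG occurs over all genes was not counted, so it says nothing about these genes in particular. Across the 41 genes the change was more negative where the mean DMSO level was higher (Spearman's rho -0.347). The DMSO mean is itself subtracted to give the change, so a negative value is partly built in. The value is only a description across genes, which share the arrays and the intensity floor.

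Other replication genes gave the surroundings. Their counts stand beside 13.4% of all genes tested lower and 10.4% higher in the bead table, and 3.02% lower in the series matrix. In the MCM and GINS helicase 8 of 10 were lower and 0 higher (median -1.62), with GINS2 at -2.64 ± 0.13, MCM3 at -2.05 ± 0.21, MCM2 at -1.97 ± 0.30 and MCM6 at -1.85 ± 0.12, and 9 of the 10 were lower in the series matrix. Of 25 further replisome genes 7 were lower and 1 higher, POLD4 (median -0.18). The largest falls were those of DSCC1, a subunit of an alternative clamp loader (-1.31 ± 0.08), RECQL4 (-1.13 ± 0.30, adjusted p = 0.0350), MTBP (-0.99 ± 0.11) and MCMBP (-0.88 ± 0.18). In the series matrix DSCC1 and MCMBP were lower too, while RECQL4 (adjusted p = 0.637) and MTBP (adjusted p = 0.113) did not pass. Of 13 polymerase genes of repair, damage bypass and mitochondria, 1 was lower and 0 higher (median 0.05), and that was POLQ, the polymerase of end joining (-1.17 ± 0.08, adjusted p = 0.000299), which did not pass in the series matrix (-0.15 and adjusted p = 0.559). Among 9 checkpoint genes the kinases CHEK1 (-1.09 ± 0.10), CHEK2 (-0.92 ± 0.15) and WEE1 (-0.80 ± 0.11) were lower and 0 were higher, and in the series matrix 0 of the 9 were lower (adjusted p = 0.422, 0.536 and 0.0777). In the E2F and retinoblastoma families 3 of 13 were lower, E2F2 (-2.19 ± 0.15), the dimer partner TFDP1 (-0.92 ± 0.11) and RBL1 (-0.82 ± 0.07), and E2F5 rose by 0.84 ± 0.10 (adjusted p = 0.00159, in the series matrix 0.30 and adjusted p = 0.117). E2F2 and TFDP1 were also lower in the series matrix, and RBL1 did not pass there (adjusted p = 0.330).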

How the data were processed

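Per the labels, cRNA was biotin-labelled for Illumina arrays. The deposited bead table gives 1 intensity per probe and array (47319 probes) without normalization, and any background subtraction by the authors is unknown here. The deposited series matrix held the authors' processed values, centred per probe and taken as log2, with column medians from -0.0956 to 0.0687. Bead columns named Control 1 to 3 were assigned to DMSO arrays 1 to 3 by name and number.

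Intensities were background-corrected (normexp, offset 50), quantile normalized and taken to log2 in limma 3.58.1 (R 4.3.3). Probes above percentile 40 of their array on at least 3 arrays were kept (29440), which can keep a gene through the group where it is bright, and each of 14534 genes was represented by its brightest kept probe. All 41 genes passed. TIC10 and DMSO were compared with lmFit and eBayes (two-sided, Benjamini-Hochberg over all genes, threshold 0.05), probe by probe over all kept probes, and in the series matrix on the same probes. Intervals are those of the moderated fit.

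Gene symbols came from the platform annotation, updated through Entrez numbers to RefSeq (GRCh38.p14). The members and lists were chosen with earlier results of these data known, and every one of the 41 is named. Other genes named are up to 4 changed per list, ORC4, POLD4, POLE4 and, as checks of cell type, epithelial markers. The fit was tested on simulated data. Protein sequences were not used here, and CHTF8, POLK and RAD1 were not tested. Alternatives are in the closing section.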

Additional observations from a re-analysis of the deposited data

How the results depend on the processing

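Of the 32 genes called lower, 12 stayed so under all 15 alternatives, 24 under all but the series matrix, and 24 without each array in turn. None of the 41 was called higher under any of the 15. The count of lower genes was 31 to 33 with no background correction, cyclic loess, no filter, a stricter filter (38 genes left) and a robust intensity trend, 33 with the mean of a gene's probes, 28 with arrays scaled to one median, and 25 to 34 (0 higher) without each array in turn. In the series matrix 13 were lower, with a median of -0.35, and over all genes 439 lower and 535 higher were called there against 1944 and 1513. The median was -1.40 with scaling to one median, where all genes gave 315 higher and 1996 lower, -0.86 with the mean of the probes, and -1.09 to -0.82 without each array, the last without DMSO array 3. Without TIC10 array 1 or 3, 1171 and 1211 of all genes were lower, and without DMSO array 3, 2788 (19.2%). With no background correction 13.5% of all genes were lower, beside 13.4% in the main fit. The share of all genes called moved between refits, so a count of the 41 is not read alone. The estimates that turned were ORC2 (-0.21) and ORC3 (-0.10) with scaling to one median, ORC2 (-0.15), ORC3 (-0.0426), DBF4 (0.0198) and PRIM2 (0.17) in the series matrix, and ORC6 (0.0492) without DMSO array 1, where leaving out each array in turn gave -0.48 to 0.0492. Of the pairs, ORC1 minus ORC2 moved to -0.75 with scaling to one median. None of the turned estimates passed, and the cause was not tested. Of the 9 genes not called, ORC5 passed with cyclic loess and with no filter (adjusted p = 0.0415 and 0.0422), ORC6 with the mean of its probes (0.00997), and POLE with the stricter filter and the robust trend (0.0445 and 0.0458). The calls lost with scaling to one median were POLD1, POLD3, LIG1 and TIPIN, and POLD1 was also lost with cyclic loess and with no filter. Replicate number as a block left 29 lower and 0 higher with a median of -0.98, without POLD1, POLD3 and CLSPN. The labels do not say what a number marks, and same-numbered arrays correlated at -0.152, 0.165 and -0.0141 in their deviations from the group means, so the numbers were not taken as pairs. Low intensity limits CDC6, CLSPN and DBF4, whose changes can be understated. The same holds for ORC1, POLD3 and DNA2, which read 57.8 to 61.4, 54.7 to 64.3 and 51.4 to 66.4 in TIC10. ORC4, outside the list, was dim as well, at 50.3 to 56.6 in TIC10.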
